A study of Mus musculus with 24 samples.

Results

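The 28 genes described here build cholesterol in the liver cell, control that synthesis through the transcription factor SREBP2, and move sterol taken up from lipoproteins. They were taken by name: a gene is a member where its symbol in the deposited count table equals one of the 28 listed symbols. All 28 were found among the 55335 genes of the table, and all 28 passed the filter on low counts that left 13281 genes for testing. The list is not the whole pathway.

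Liver RNA from 24 female mice was sequenced, 4 animals in each of 6 groups that crossed 2 genotypes with 3 diets. WT mice were of the strain B6129SF2/J, and 3xTg mice were 3xTg-AD, a line known for carrying mutant human amyloid precursor, presenilin and tau transgenes that drive Alzheimer-like changes in the brain. All animals started a diet at 3 months of age and stayed on it for 6 months. On the control diet, carbohydrate made up 70%, long-chain triglyceride 20% and protein 10%, at 4.1 kcal/g. In the MCT diet, medium-chain triglyceride replaced part of the fat, giving 10% medium-chain and 10% long-chain triglyceride at the same energy density. The ketogenic diet (KD) held no carbohydrate, 90% long-chain triglyceride and 10% protein (6.7 kcal/g), so it differed from the other diets in carbohydrate, fat and energy density at once. The labels name no litter, cage, hour of death or feeding state at death.

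Cholesterol is made from acetyl-CoA through mevalonate, isoprenoid diphosphates, squalene and lanosterol, and the liver is a main site of this synthesis. SREBP2 is held in the endoplasmic reticulum by its escort Scap and the Insig proteins when membrane sterol is high; when sterol falls it travels to the Golgi, is cut, and its released domain raises transcription of nearly all enzymes of the pathway. Insig1 is itself a target of SREBP2, while Insig2 in mouse liver is known to respond to insulin, fasting and the circadian clock. Mylip is a ubiquitin ligase that removes lipoprotein receptors from the cell surface, Npc1 and Npc2 pass cholesterol out of the lysosome, and Stard4 carries sterol between membranes.

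Counts on genes ran from 12009432 to 20108831 per library. The 10 hepatocyte markers were present in every liver, with a summed level of 75880 to 179600 CPM. CPM are counts divided by the library total times its TMM factor, and scaled to a common size. These markers were lowest on average in 3xTg KD livers, at 83930 ± 10790 CPM (SD, n = 4). RNA of exocrine pancreas, 17 markers summed, exceeded 100 CPM in WT KD replicates 1, 2 and 4, WT MCT replicate 3 and 3xTg MCT replicates 3 and 4, with 1196 to 21050 CPM there and at most 31.5 CPM in the other 18 libraries. Of the 3xTg KD livers, replicates 2 and 3 held 70.2 and 72.1 CPM of neutrophil markers, against at most 18.95 CPM in any other library, and WT MCT replicate 4 held 191.6 CPM of adrenal cortex markers, against at most 5.86 CPM. The clock output gene Dbp ranged from 2.10 to 113.6 CPM over the livers, with wide ranges inside groups. All CPM, of markers here and of members below, are after TMM scaling (a per-library factor that sets the bulk of genes level). These factors were 1.19 to 1.32 in 3xTg KD livers and 0.833 to 1.12 in the others. A larger factor lowers the CPM of every gene in that library, the marker sums included. Since the RNA is from whole liver, fewer cells of a type and less RNA per cell cannot be told apart.

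Per kilobase of exon, the most abundant members were Sc5d, the sterol desaturase near the end of the pathway, at 131.7 CPM per kb, Hmgcs1, the cytosolic HMG-CoA synthase, at 125.1 CPM per kb, and Insig1 at 102.2 CPM per kb, each a mean over 24 livers. Ebp, a sterol isomerase, followed at 85.7 CPM per kb and Cyp51, the lanosterol demethylase, at 76.2 CPM per kb. Srebf2, which encodes SREBP2, stood much lower, at 6.11 CPM per kb, and Scap at 9.56 CPM per kb. Lbr, Ggps1 and Fdps were the lowest, at 3.45, 1.87 and 1.71 CPM per kb. Fdps has processed pseudogenes that can share its reads and overlaps a gene model on its own strand, as Tm7sf2 overlaps Vps51, Srebf2 overlaps Gm49502 and Mir33, and Lbr overlaps Gm26004, so the levels of these 4 are uncertain. Hmgcs1, Mvd, Idi1, Ggps1, Fdft1, Lss, Cyp51, Lbr, Scap, Insig2 and Npc1 overlap a gene on the other strand, and since the strand setting is not stated, reads of such pairs may not be told apart. Every member had at least 38 reads in every library. The range over livers differed widely: the highest liver held 13.7 times the CPM of the lowest for Hmgcs1 and 12.6 times for Idi1, but 1.71 times for Npc2 and 1.82 times for Ebp.

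The promoter stretches of 4 members are shown because these genes mark the ends of the pattern described below: Hmgcs1 and Msmo1 with the largest diet differences among the enzymes that passed the test, and Insig1 and Insig2, the paralogous retention proteins, which did not move together. Each stretch runs from 250 bases before to 50 bases after a RefSeq transcript start (GRCm38.p6), 5′ to 3′ on the strand of the gene, and was found for 23 of the 28 members; Fdps, Fdft1, Sqle, Npc1 and Stard4 had no entry. Capitals mark CCAAT boxes, the NF-Y motif, on either strand, and the sterol regulatory element TCACNCCAC with the shorter CACCCCAC, which lies inside it in the first stretch.
Hmgcs1, chr13:119690101-119690400, plus strand: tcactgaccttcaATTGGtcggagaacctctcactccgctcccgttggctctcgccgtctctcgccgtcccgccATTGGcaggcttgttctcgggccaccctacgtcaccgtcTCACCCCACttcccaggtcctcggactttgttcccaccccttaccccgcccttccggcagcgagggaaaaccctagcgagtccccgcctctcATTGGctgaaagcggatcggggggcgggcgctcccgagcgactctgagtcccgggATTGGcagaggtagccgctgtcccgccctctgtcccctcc
Msmo1, chr8:64733529-64733828, minus strand: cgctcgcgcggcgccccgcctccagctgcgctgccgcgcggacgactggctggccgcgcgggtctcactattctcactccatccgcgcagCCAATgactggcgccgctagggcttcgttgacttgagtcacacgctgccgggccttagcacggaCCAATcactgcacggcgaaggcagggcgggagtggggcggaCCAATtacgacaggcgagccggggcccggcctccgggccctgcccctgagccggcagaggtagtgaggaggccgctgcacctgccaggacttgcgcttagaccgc
Insig1, chr5:28071162-28071461, plus strand: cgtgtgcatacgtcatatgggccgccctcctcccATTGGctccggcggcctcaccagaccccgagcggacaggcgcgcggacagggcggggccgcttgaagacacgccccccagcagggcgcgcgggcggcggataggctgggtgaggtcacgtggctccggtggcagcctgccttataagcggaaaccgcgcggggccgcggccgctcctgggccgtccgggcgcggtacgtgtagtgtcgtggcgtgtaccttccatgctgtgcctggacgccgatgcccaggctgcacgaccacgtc
Insig2, chr1:121327975-121328274, minus strand: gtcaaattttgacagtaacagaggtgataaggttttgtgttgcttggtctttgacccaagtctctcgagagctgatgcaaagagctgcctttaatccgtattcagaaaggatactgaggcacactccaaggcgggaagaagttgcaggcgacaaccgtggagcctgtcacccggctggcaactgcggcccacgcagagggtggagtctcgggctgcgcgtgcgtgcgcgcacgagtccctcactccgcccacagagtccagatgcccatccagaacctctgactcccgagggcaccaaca
Insig2, chr1:121332540-121332839, minus strand: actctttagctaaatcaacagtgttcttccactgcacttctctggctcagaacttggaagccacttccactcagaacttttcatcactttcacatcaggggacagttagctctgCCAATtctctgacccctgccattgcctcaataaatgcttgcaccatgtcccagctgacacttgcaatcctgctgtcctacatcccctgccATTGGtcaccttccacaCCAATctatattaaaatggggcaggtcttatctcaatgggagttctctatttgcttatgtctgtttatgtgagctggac
In the Hmgcs1 stretch the sterol regulatory element began 137 bases before the start, and 4 CCAAT boxes stood on the opposite strand. Msmo1 had 3 CCAAT boxes, at 160, 96 and 55 bases before its start. The Insig1 stretch held 1 CCAAT box and the upstream Insig2 stretch held 3, while the Insig2 stretch that starts further inside the gene held none, as did a further Insig2 stretch that is not shown. Counts per gene sum the transcripts of all these starts. Over the members, TCACNCCAC was found in 1 of 23 genes against 1.44% of 27025 genes, and CACCCCAC in 2 (Hmgcs1 and Acat2) against 3.3%. CCAAT was found in 21 of 23 against 41.1% of genes, and GGGCGG, the Sp1 box, in 21 of 23 against 38.2%, both on either strand. A match is a description of these letters only.

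**Figure D1:**
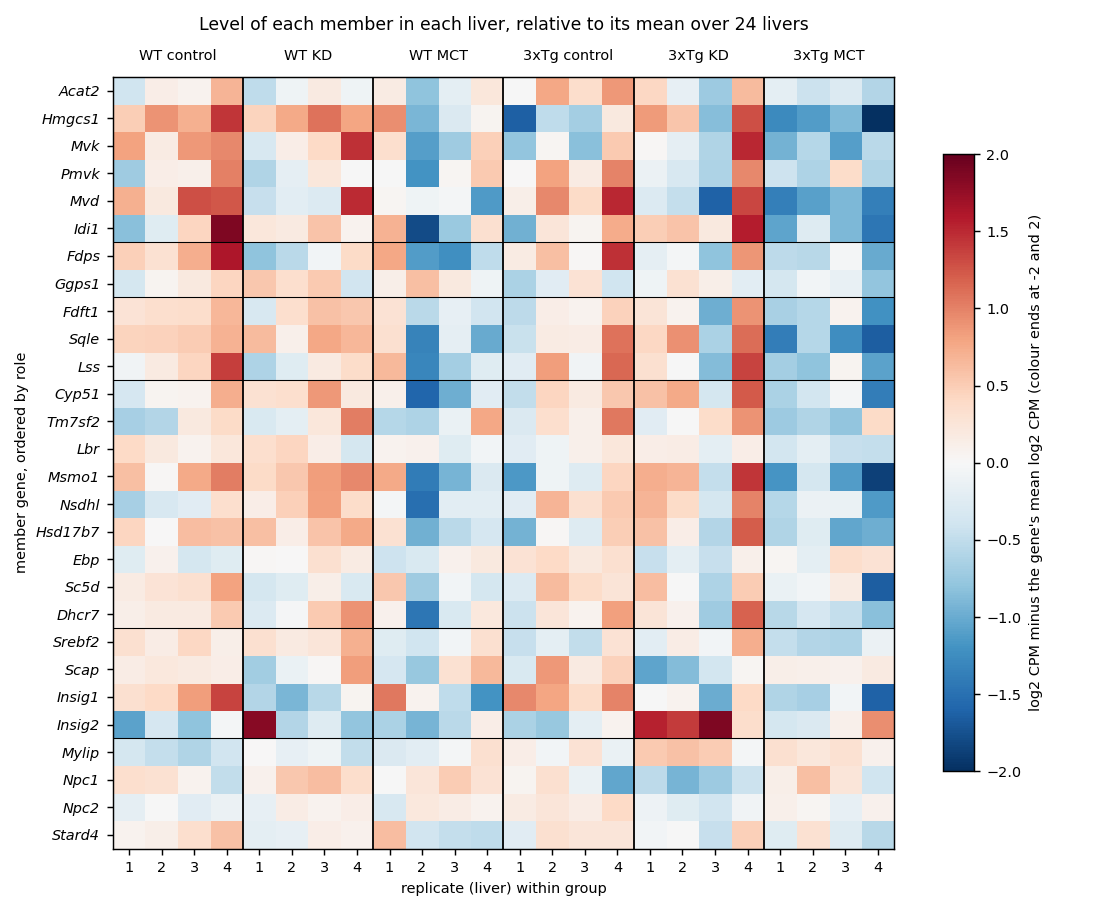
Heat map of the 28 members (rows, ordered by role from early mevalonate steps to sterol movement) in 24 livers (columns, by group and replicate); colour is log2 CPM minus the gene's mean over the 24 livers, from blue (lower) to red (higher), ending at -2 and 2. Whole columns differ inside groups, as in 3xTg KD replicate 4 (red) against replicate 3 (blue), and the 3xTg MCT columns are blue over most enzymes.

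Within most groups, 1 liver was the highest or the lowest for most of the 20 enzymes from Acat2 to Dhcr7. In 3xTg KD livers, replicate 4 was the highest of 4 for 17 of the 20 enzymes and replicate 3 the lowest for 17. Replicate 4 was also the highest for 16 of 20 in both the WT control and the 3xTg control group, while replicate 1 of 3xTg control was the lowest for 17. WT MCT replicate 1 was the highest of its group for 12 enzymes and replicate 2 the lowest for 15, and 3xTg MCT replicate 4 was the lowest for 15, while the highest was replicate 3 for 9 enzymes and replicate 2 for 8. Among WT KD livers, replicate 3 was the highest for 10 enzymes, and replicate 4 was the highest for 8 and the lowest for 4, with replicate 1 the lowest for 13. In WT control livers replicate 1 was the lowest for 13. As a level per liver, the median of the 20 enzymes relative to each gene's mean (log2) ran from -0.61 to 1.06 in 3xTg KD livers, from -0.36 to 0.53 in 3xTg control livers and from -1.04 to -0.37 in 3xTg MCT livers. In WT it ran from 0.14 to 0.71 on control diet, from -0.13 to 0.46 on KD and from -1.03 to 0.22 on MCT. All 4 livers of the 3xTg MCT group lay below 0, as did 3 of the WT MCT group. Liver 3 of the 3xTg KD group was 1 of the 2 with neutrophil markers, and liver 4 had a Dbp level of 57.6 CPM against 4.38 to 13.9 CPM in the other 3; the part of either in the spread was not tested.

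**Figure D2:**
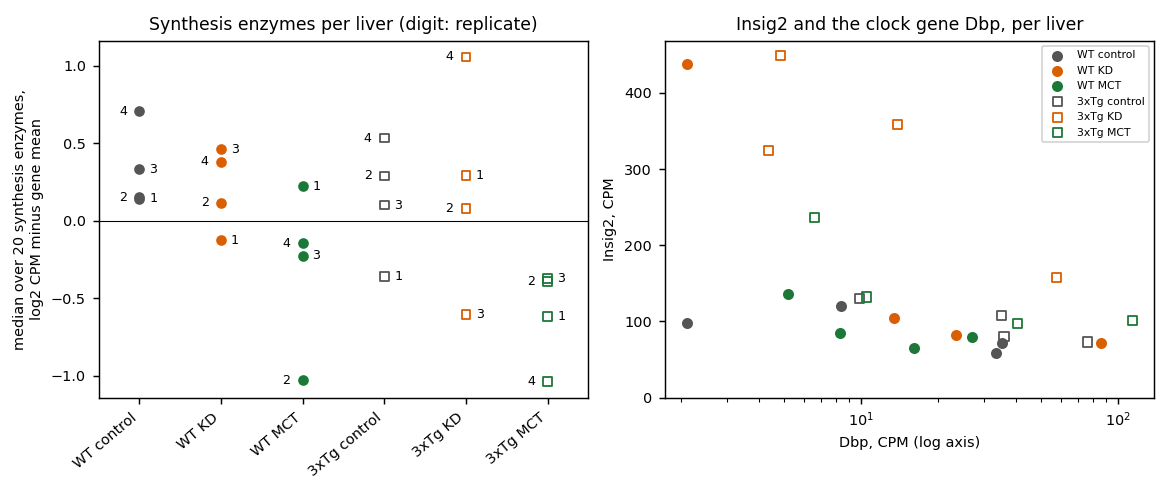
Left, the median over the 20 synthesis enzymes of log2 CPM minus each gene's mean, for each liver by group, with the replicate number beside each point; the 4 livers of 3xTg MCT lie between -1.04 and -0.37. Right, Insig2 (CPM) against Dbp (CPM, log axis) for the 24 livers, filled circles WT and open squares 3xTg, coloured by diet; the 4 highest Insig2 values, 324 to 449 CPM, are all KD livers.

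MCT against control diet asked what replacing part of the long-chain fat with medium-chain fat did at equal energy density. Nearly all synthesis enzymes had lower mean levels on MCT in both genotypes, by 0.65 on the log2 scale for the median enzyme in WT and 0.79 in 3xTg, but no single gene passed the test. With edgeR's quasi-likelihood test, 0 of 28 members were called in WT, where 0% of all tested genes were called, and 0 of 28 in 3xTg, also at 0% of all genes. DESeq2 called 0 members in WT, among 17 higher and 2 lower genes, and 2 in 3xTg, Sqle and Insig1, among 12 higher and 14 lower genes in all. At an unadjusted p under 0.05, 6 members were lower in WT against 2.33% of all genes, and 12 in 3xTg against 2.39%. In the other direction 1 member was higher in WT (3.71% of all genes) and 0 in 3xTg (4.05% of all genes). The livers of both diets did not overlap for 2 lower members in WT, Sqle and Mvd (1.3% of all genes), and for 6 in 3xTg, Acat2, Mvd, Fdps, Sqle, Insig1 and Npc2 (1.48% of all genes). The median log2 fold change of the 28 was -0.44 in WT and -0.68 in 3xTg, beside 0.01 and 0.02 over all tested genes.

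Among the early mevalonate enzymes, all 6 had estimates below 0 in both genotypes. Mvd, the decarboxylase that makes isopentenyl diphosphate, had the lowest: in 3xTg it was 15.2, 27.2, 18.1 and 39.9 CPM in control replicates 1 to 4 and 5.43, 6.59, 7.51 and 5.39 CPM in the MCT livers, a log2 fold change of -2.01 ± 0.50 (SE, n = 4 per group; adjusted p = 0.402). The WT estimate was -1.16 ± 0.48, with control livers at 16 to 34.3 CPM and MCT livers at 6.38 to 14.4 CPM. Fdps, which makes farnesyl diphosphate, gave -1.16 ± 0.43 in WT and -1.18 ± 0.44 in 3xTg (adjusted p = 0.754 and 0.643), at low levels of 2.67 to 19.2 CPM over these 16 livers.

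Sqle, the squalene epoxidase and a rate-limiting step of the pathway (ENSMUSG00000022351.14, chromosome 15, 59315077 to 59331192, plus strand), was separated by diet in both genotypes. It stood at 146, 147, 152 and 172 CPM in WT control livers and 134, 42.5, 94.5 and 53.1 CPM in WT MCT livers. In 3xTg it was 78.7, 119, 119 and 226 CPM on control diet and 41.1, 72.1, 45.1 and 34 CPM on MCT. The log2 fold change was -0.93 ± 0.35 in WT (adjusted p = 0.772) and -1.50 ± 0.36 in 3xTg (adjusted p = 0.367). No control liver lay below an MCT liver of its genotype, yet the estimates did not pass adjustment over 13281 genes.

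Of the 9 enzymes from lanosterol to cholesterol, 7 had estimates below 0 in WT and 9 in 3xTg. The lowest was Msmo1, at -0.88 ± 0.41 in WT and -0.87 ± 0.41 in 3xTg. Insig1, the sterol-responsive retention protein and a target of SREBP2, followed the enzymes: in 3xTg it was 538, 475, 357 and 549 CPM on control diet and 182, 173, 267 and 90 CPM on MCT (-1.43 ± 0.38, adjusted p = 0.461). In WT the Insig1 estimate was -0.70 ± 0.38, with MCT replicate 1 at 572 CPM inside the control range. Srebf2 itself gave -0.33 ± 0.20 in WT and -0.26 ± 0.20 in 3xTg, and Scap -0.10 ± 0.30 and -0.24 ± 0.30. Mylip had the smallest unadjusted p in WT and lay in the other direction, at 10.1 to 12.1 CPM on control diet and 12.7 to 19.4 CPM on MCT (0.42 ± 0.16, adjusted p = 0.741). Leaving out 1 liver at a time kept the 28-gene median below 0, between -0.68 and -0.30 in WT and between -0.85 and -0.44 in 3xTg, and called no member. WT MCT replicate 4, with adrenal cortex RNA, and the 3 MCT livers with pancreas RNA are among these; without all libraries holding pancreas RNA the medians were -0.40 and -0.66.

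**Figure D3:**
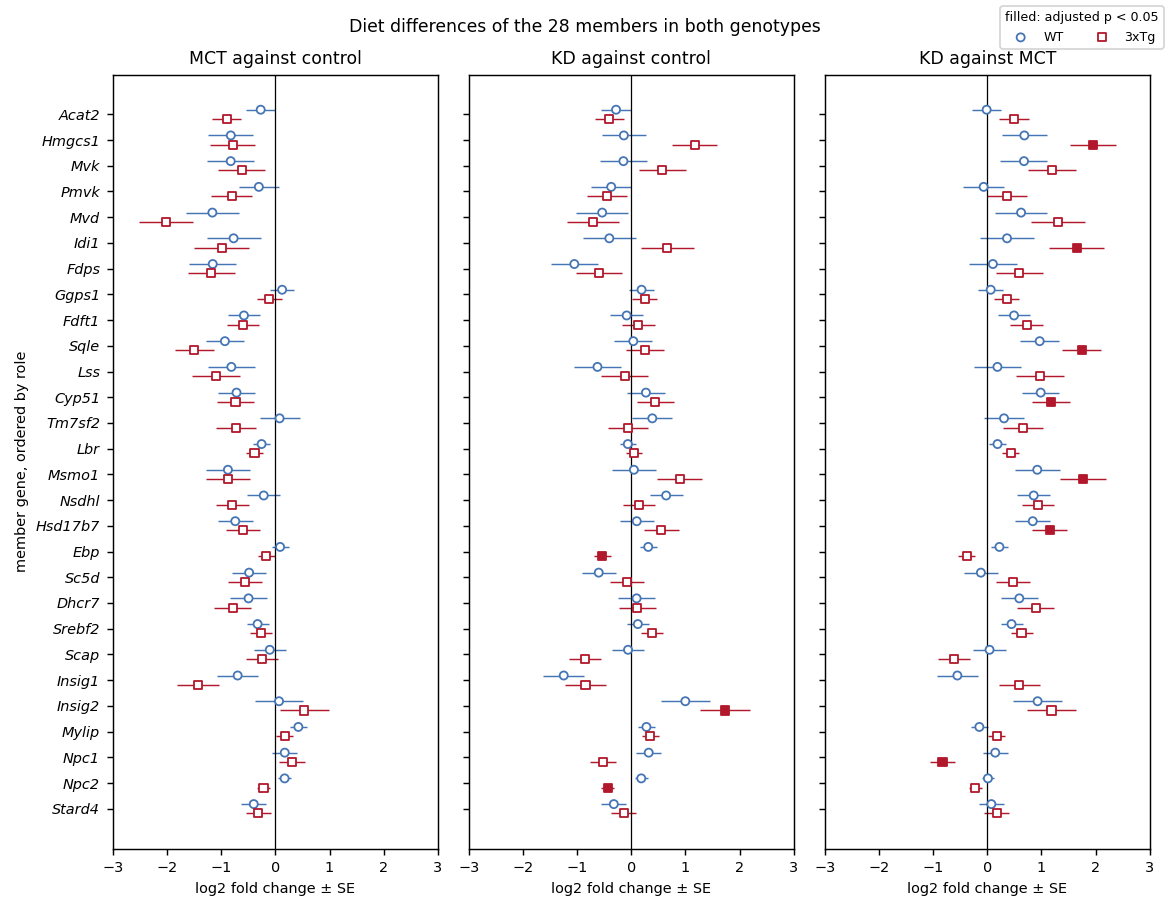
Log2 fold changes ± SE (edgeR, n = 4 livers per group) of the 28 members for MCT against control, KD against control and KD against MCT; circles WT, squares 3xTg, filled where the adjusted p was under 0.05. In the left panel 21 of 28 WT and 25 of 28 3xTg estimates are below 0, and in the right panel 7 of the 3xTg estimates are filled.

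KD against control diet asked what removing carbohydrate and feeding mostly long-chain fat did. The synthesis enzymes as a group did not lie to 1 side: 11 of 20 estimates were below 0 in WT and 8 of 20 in 3xTg, with 28-gene medians of -0.01 and 0.08 beside 0.00 and 0.01 over all genes. The members called were Insig2, which rose, and Npc2 and Ebp, which fell, all in 3xTg. In WT, edgeR called 0 of 28 members, where 0.648% of all genes were called, and 4 members had an unadjusted p under 0.05 (12.3% of all genes); DESeq2 called 1, Insig1, among 143 higher and 122 lower genes. In 3xTg the 3 called members were 10.7% of the 28, where 5.39% of all genes were called.

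Insig2 (ENSMUSG00000003721.14, chromosome 1, 121304353 to 121332589, minus strand) retains the SREBP and Scap complex in the endoplasmic reticulum, as Insig1 does. In 3xTg it stood at 80.1, 73, 108 and 129.9 CPM on control diet and 359, 324, 449 and 158 CPM on KD, a log2 fold change of 1.72 ± 0.46 (adjusted p = 0.0307), and the groups did not overlap. In WT it was 58.6, 98.5, 71.2 and 120.2 CPM on control diet and 438, 82.7, 104 and 71.3 CPM on KD: 1 KD liver was high and the other 3 lay inside the control range. The WT estimate of 0.998 ± 0.454 (adjusted p = 0.376) became -0.02 without that liver, replicate 1. Dbp stood at 2.10, 23.5, 13.4 and 86.3 CPM in WT KD replicates 1 to 4 and at 13.9, 4.38, 4.85 and 57.6 CPM in 3xTg KD replicates 1 to 4. The part of clock phase in the Insig2 level was not tested by these values; in a fit with the Dbp level as a covariate, chosen after seeing it, the 3xTg estimate was 1.17 (adjusted p = 0.0173). The 3xTg call ended without control replicate 1, 2 or 3 or KD replicate 1, 2 or 3 (adjusted p = 0.0645 to 0.114), and held without either replicate 4. Without both livers with neutrophil markers it was 1.40 (adjusted p = 0.321).

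Insig1 lay in the other direction on KD. In WT it was 343, 365, 493 and 704 CPM on control diet and 184, 146, 188 and 285 CPM on KD, with no overlap, a log2 fold change of -1.25 ± 0.38 (adjusted p = 0.139). DESeq2 and a fit of these 2 groups alone each called it (adjusted p = 0.0488 and 0.0491). In 3xTg the estimate was -0.84 ± 0.38 (adjusted p = 0.225), with KD livers at 139 to 364 CPM and control livers at 357 to 549 CPM. The paralogues had estimates of opposite sign on KD in both genotypes. In WT this rested on KD replicate 1, without which the Insig2 estimate was -0.02. With edgeR, Insig2 passed in 3xTg and Insig1 in neither genotype. Scap gave -0.86 ± 0.30 in 3xTg (adjusted p = 0.102) and -0.06 ± 0.30 in WT, and Srebf2 0.37 ± 0.20 and 0.12 ± 0.20.

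Npc2, the soluble lysosomal cholesterol carrier (ENSMUSG00000021242.9, chromosome 12, 84754562 to 84773152, minus strand), fell on KD in 3xTg: it was 97, 103, 96.5 and 114 CPM on control diet and 80.5, 73.6, 66.8 and 82.2 CPM on KD (-0.44 ± 0.12, adjusted p = 0.0304). Ebp (ENSMUSG00000031168.14, chromosome X, 8185329 to 8193512, minus strand) fell from 238, 256, 223 and 242 CPM to 141, 171, 141 and 208 CPM (-0.54 ± 0.16, adjusted p = 0.0452). The groups did not overlap for either gene. Over all 13281 tested genes, 814 were higher and 817 lower without overlap in this comparison. Beside these, 1 of the 28 members, Insig2, was higher and 2, Npc2 and Ebp, were lower. Lack of overlap alone therefore does not set these 3 members apart from other genes. Without 3xTg KD replicate 4, 5 members were called, with Mvd and Scap added as lower. The Npc2 call ended without control replicate 2 or 4 or KD replicate 2 or 3 (adjusted p = 0.0754 to 0.128), and the Ebp call ended in 7 of 8 omissions, all but KD replicate 4 (adjusted p = 0.0694 to 0.168). Both kept their sign but not their call with library sizes alone in place of TMM scaling, which gave -0.15 and -0.25; the 3 members called were then Insig2, Hmgcs1 and Mylip, all higher, and the median of all genes moved from 0.01 to 0.31. Without both livers with neutrophil markers 0 of 28 were called, Npc2 giving -0.34 (adjusted p = 0.433) and Ebp -0.47 (0.414). Hepatocyte markers moved with this group, 3 of 10 being called lower and 0 higher, and 3 neutrophil genes (S100a8, S100a9 and Ngp) were called higher; their part in the member calls was not tested.

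The other enzymes differed in sign on KD. Hmgcs1 in 3xTg was 151, 328, 290.4 and 537 CPM on control diet and 847, 685, 258 and 1145 CPM on KD (1.17 ± 0.41, adjusted p = 0.108), with KD replicate 3 inside the control range. Msmo1 gave 0.90 ± 0.41 in 3xTg, while Fdps gave -1.05 ± 0.43 in WT, where its level was 7.68 to 19.2 CPM on control diet and 3.56 to 8.19 CPM on KD (adjusted p = 0.307). Sc5d did not overlap between diets in WT, at 677 to 1059 CPM on control diet and 472 to 656 CPM on KD (-0.60 ± 0.31, adjusted p = 0.452). Sc5d and Insig1 were the 2 members lower without overlap on KD in WT, and 0 were higher. Of all 13281 tested genes, 491 were lower and 471 higher without overlap there.

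KD against MCT set the 2 test diets side by side, and gave the most member calls of the 11 comparisons. In 3xTg, 6 synthesis enzymes were higher on KD than on MCT (Hmgcs1, Sqle, Msmo1, Hsd17b7, Cyp51 and Idi1, by 1.16 to 1.96 on the log2 scale) and Npc1 was lower. These 7 are 25% of the members, where 8.02% of all genes were called. Another 9 members were higher at an unadjusted p under 0.05, making 15 of 28 where 11.3% of all genes were, and 3 of them, Hmgcs1, Idi1 and Lbr, did not overlap (6.42% of all genes). Of the 20 enzymes, 19 had estimates above 0; Ebp was the exception, at -0.37 ± 0.16. The median of the 28 was 0.65 beside -0.01 over all genes. In WT, edgeR and DESeq2 each called 0 of 28 members, where edgeR called 0.181% of all genes and DESeq2 57 higher and 41 lower genes. At an unadjusted p under 0.05, 6 members were higher in WT (3.62% of all genes) and 0 were lower (3.62% of all genes), and 2, Cyp51 and Nsdhl, were higher with no overlap (1.94% of all genes).

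Hmgcs1 (ENSMUSG00000093930.2, chromosome 13, 119690379 to 119708260, plus strand), whose promoter stretch above holds the letters of the sterol regulatory element, was 847, 685, 258 and 1145 CPM in 3xTg KD livers and 194, 215, 254 and 92.1 CPM in 3xTg MCT livers. The fold change was 3.88 (log2 1.96 ± 0.42, adjusted p = 0.00715), and the groups met without overlap, KD replicate 3 lying just above the highest MCT liver. Idi1, the isopentenyl diphosphate isomerase (ENSMUSG00000058258.14, chromosome 13, 8885501 to 8892451, plus strand), was 16.7, 17.6, 13.5 and 35.1 CPM on KD and 5.68, 9.95, 6.34 and 4.34 CPM on MCT (1.65 ± 0.51, adjusted p = 0.0465), with no overlap.

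Sqle was 142, 201, 69.3 and 232 CPM in 3xTg KD livers and 41.1, 72.1, 45.1 and 34 CPM in MCT livers (1.74 ± 0.36, adjusted p = 0.00559). Only KD replicate 3 fell inside the MCT range. Msmo1, the methylsterol oxidase (ENSMUSG00000031604.10, chromosome 8, 64718139 to 64733792, minus strand), was likewise lowest in KD replicate 3, at 390, 379, 169 and 633 CPM on KD and 104, 184, 108 and 64.4 CPM on MCT (1.77 ± 0.42, adjusted p = 0.0131). Its partner in sterol demethylation, the reductase Hsd17b7 (ENSMUSG00000026675.12, chromosome 1, 169949535 to 169969241, minus strand), was 144, 107, 64.7 and 223 CPM on KD and 63.6, 82.2, 46.9 and 48.9 CPM on MCT (1.16 ± 0.32, adjusted p = 0.0294). Cyp51 (ENSMUSG00000001467.5, chromosome 5, 4081145 to 4104746, minus strand) was 459, 516, 238 and 710.2 CPM on KD and 197, 237, 298 and 117 CPM on MCT (1.18 ± 0.35, adjusted p = 0.0387). For all 3 genes the overlap again came from KD replicate 3.

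Npc1, the membrane protein of lysosomal cholesterol export, was lower on KD: 104, 78.3, 90.1 and 110.3 CPM against 162, 227, 176 and 113 CPM on MCT (-0.83 ± 0.24, adjusted p = 0.0331), with no overlap. Npc1 and Scap were the 2 members lower without overlap in 3xTg, beside 858 of all 13281 tested genes. Srebf2 gave 0.63 ± 0.20 (adjusted p = 0.0565), Nsdhl 0.94 ± 0.30 (0.0588) and Lbr 0.43 ± 0.15 (0.0794), each short of the threshold. Insig1 was not separated by these diets in 3xTg (0.59 ± 0.38), nor was Npc2 (-0.22 ± 0.12). In WT the same enzymes had smaller estimates, 0.69 ± 0.41 for Hmgcs1, 0.97 ± 0.36 for Sqle, 0.92 ± 0.41 for Msmo1, 0.84 ± 0.32 for Hsd17b7, 0.99 ± 0.35 for Cyp51 and 0.37 ± 0.50 for Idi1; the lowest adjusted p of the 28 in WT was that of Cyp51, 0.407. Whether the genotypes differ in this contrast was not tested.

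Hmgcs1, Sqle and Msmo1 were called in all 8 fits that left out 1 liver (adjusted p = 0.00337 to 0.0405). The Hsd17b7 call ended without KD replicate 1 or 4 or MCT replicate 1, 3 or 4 (adjusted p = 0.0525 to 0.107) and the Cyp51 call without KD replicate 1, 2 or 4 or MCT replicate 1, 2 or 4 (0.055 to 0.106). Idi1 was called in 1 of 8, without MCT replicate 2 (up to 0.127 in the others), and Npc1 in 2, without KD or MCT replicate 4 (up to 0.103). Pancreas RNA was present in 2 of these MCT livers (3750 and 9993 CPM of markers), and 16 of the 17 markers were called lower on KD. Without all libraries with pancreas RNA, 2 MCT livers remained and Insig2 alone was called, while Hmgcs1 gave 1.87 (adjusted p = 0.0951), Sqle 1.53 (0.116) and Msmo1 1.47 (0.175). Without both KD livers with neutrophil markers, 4 members were called; Hmgcs1 gave 2.40 (adjusted p = 0.00865), while Npc1 gave -0.67 (0.29). Of the 10 hepatocyte markers, 5 were called lower and 0 higher on KD. With library sizes alone, 20 members were called higher and 0 lower, where the median of all genes moved from -0.01 to 0.43; Npc1 then gave -0.39 (adjusted p = 0.158).

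**Figure D4:**
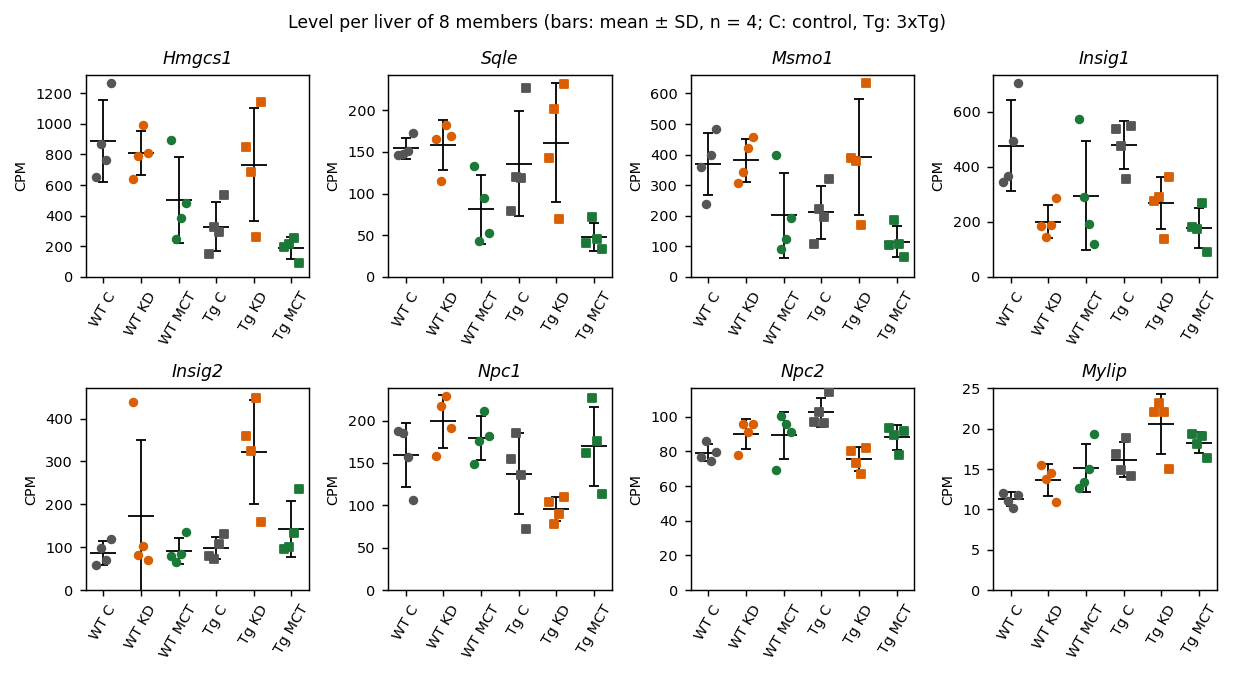
CPM of 8 members in each liver, by group (C, control; Tg, 3xTg; circles WT, squares 3xTg), with the mean and SD of 4 livers; each vertical axis is linear and starts at 0. Hmgcs1, Sqle and Msmo1 are low in all 4 3xTg MCT livers. Insig2 is above 150 CPM in all 4 3xTg KD livers, in 1 WT KD liver and in 3xTg MCT replicate 4, at 236.5 CPM. Npc1 has its lowest group mean in 3xTg KD, while its lowest single liver is 3xTg control replicate 4, at 72.5 CPM.

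Genotype was compared on each diet, using the same livers as above. On control diet Hmgcs1 had the lowest estimate, at 151 to 537 CPM in 3xTg against 656 to 1264 CPM in WT (-1.44 ± 0.42, adjusted p = 0.0824), with no overlap. It was called by DESeq2 (adjusted p = 0.02), by a fit of both groups alone (0.0445) and without 3xTg control replicate 4 (-1.79, 0.0462), and the only other member called under any alternative was Mylip with Dbp as a covariate (0.60, 0.0375). EdgeR called 0 of 28 (1.86% of all genes called), with 5 members at an unadjusted p under 0.05 (11.9% of all genes); DESeq2 called 1 among 157 higher and 216 lower genes. Mylip was 14.1 to 18.8 CPM in 3xTg and 10.1 to 12.1 CPM in WT (0.52 ± 0.16, adjusted p = 0.0989). Npc2 was 96.5 to 114 CPM against 74.5 to 86.2 CPM (0.37 ± 0.12, adjusted p = 0.119). Ebp was 223.2 to 256.5 CPM against 151.8 to 206.7 CPM (0.48 ± 0.16, adjusted p = 0.138). These 3 members were higher in 3xTg without overlap, and Hmgcs1 was the 1 member lower without overlap. Of all 13281 tested genes, 579 were higher and 572 lower without overlap between genotypes on control diet.

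On MCT the genotype estimate for Hmgcs1 was again below 0, at 92.1 to 254 CPM in 3xTg and 248 to 895 CPM in WT (-1.41 ± 0.42, adjusted p = 0.105). Ggps1, which makes geranylgeranyl diphosphate, gave -0.55 ± 0.23 (adjusted p = 0.347) and Lbr, a sterol reductase that also anchors chromatin to the nuclear lamina, -0.34 ± 0.15 (0.383). EdgeR called 0 of 28 members (1.74% of all genes called), 4 having an unadjusted p under 0.05 (10.9% of all genes), and DESeq2 called Hmgcs1 alone, among 115 higher and 195 lower genes. The median of the 28 was -0.32 beside 0.01 over all tested genes, and 23 of 28 estimates were below 0, as were 48.5% of all genes. Since enzymes rose and fell together by liver, these signs are not independent.

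On KD the Hmgcs1 levels of the genotypes overlapped, at 258 to 1145 CPM in 3xTg and 639 to 993 CPM in WT (-0.14 ± 0.41), with 3xTg livers both below and above all WT livers. Called members were Npc1, lower in 3xTg, and Mylip, higher: 7.14% of the 28, where 8.49% of all genes were called, a share near the background. Npc1 was 104, 78.3, 90.1 and 110.3 CPM in 3xTg and 158, 217, 230 and 191 CPM in WT (-1.06 ± 0.24, adjusted p = 0.00824), with no overlap. It was the 1 member lower without overlap, and 0 were higher. Of all 13281 tested genes, 915 were lower and 902 higher without overlap between genotypes on KD. Mylip (ENSMUSG00000038175.10, chromosome 13, 45389742 to 45412022, plus strand) was 22.1, 23.2, 22.1 and 15 CPM in 3xTg and 15.5, 13.8, 14.5 and 10.9 CPM in WT (0.59 ± 0.16, adjusted p = 0.021); 3xTg KD replicate 4 lay inside the WT range. Npc1 was called in all 8 omissions of 1 liver (adjusted p = 0.00882 to 0.0362). The Mylip call ended without WT replicate 2 or 4 or 3xTg replicate 1, 2 or 3 (0.0539 to 0.0747). Pancreas RNA was present in 3 WT KD livers; without all such libraries 1 WT KD liver remained, whose spread is assumed to be that of the other groups, and Npc1 gave -1.27 (adjusted p = 0.103). Without the 2 livers with neutrophil markers it gave -0.91 (0.174), and neither it nor Mylip (0.43, 0.326) was called. With library sizes alone, 2 members were higher, Mylip and Insig2, and 1 lower, Npc1, where the median of all genes moved from 0.00 to 0.43.

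The test of whether a diet response differed between genotypes called 0 of 28 members for KD (0.00753% of all genes called) and 0 of 28 for MCT (0% of all genes called). At an unadjusted p under 0.05 there were 4 members for KD (14.6% of all genes) and 1 for MCT (2.16% of all genes). DESeq2 called Ebp and Npc2 for KD, among 109 higher and 150 lower genes, and 0 for MCT, where it called no gene at all. The KD response of Ebp was -0.54 in 3xTg and 0.31 in WT, a difference of -0.85 ± 0.22 (adjusted p = 0.104, and 0.0406 without 3xTg KD replicate 4). Mean Ebp levels were 172.1 CPM in WT control, 213.7 CPM in WT KD, 240.2 CPM in 3xTg control and 165.2 CPM in 3xTg KD livers. For Npc2 the responses were -0.44 and 0.18 (difference -0.62 ± 0.17, adjusted p = 0.11), and for Npc1 -0.52 and 0.32 (-0.84 ± 0.33, adjusted p = 0.233). In the MCT response the smallest p values were those of Npc2 (-0.39 ± 0.17), Acat2, the cytosolic thiolase that starts the pathway (-0.63 ± 0.38), and Tm7sf2, a sterol reductase (-0.81 ± 0.52), each with an adjusted p of 1. For Sqle the MCT responses differed by -0.57 ± 0.50 and for Hmgcs1 by 0.03 ± 0.58, errors too wide to show that the genotypes responded alike.

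Mvk, Pmvk, Fdft1, Lss, Dhcr7 and Stard4 overlapped between groups in every comparison of diets or genotypes. The first 2 of these, kinases that phosphorylate mevalonate in turn, stood lowest on average in 3xTg MCT livers, at 7.52 ± 1.40 and 51.9 ± 18.9 CPM, against 11.6 ± 5.38 and 90.7 ± 29.4 CPM on control diet in 3xTg (SD, n = 4). Fdft1, the squalene synthase that commits farnesyl units to sterol, and Lss, which closes the squalene ring to lanosterol, were also lowest on MCT in 3xTg. Fdft1 was 143 ± 37.5 CPM on control diet, 157 ± 76.1 CPM on KD and 94.9 ± 35.3 CPM on MCT, and Lss was 100.5 ± 45.8, 92.6 ± 59.3 and 47 ± 17.3 CPM. Dhcr7, the reductase of the last step, was 85.7 ± 30.9, 92.6 ± 50.2 and 49.7 ± 7.05 CPM. None of these passed the test; the smallest adjusted p values were 0.0962 for Mvk, 0.11 for Dhcr7 and 0.144 for Fdft1, all in KD against MCT in 3xTg. Stard4 had group means of 143 to 194 CPM and MCT estimates of -0.40 ± 0.23 in WT and -0.32 ± 0.23 in 3xTg.

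Genes next to the pathway were called in 4 of the 11 comparisons. Among 12 genes listed here as other SREBP targets, 4 were lower and 0 higher on KD against control diet in 3xTg. Of all 13281 tested genes, 338 were lower and 378 higher there. The median of the 12 was -0.33 beside 0.01 over all genes. Whether SREBP controls each of the 12 in these livers was not tested. The 4 were Acly, which makes cytosolic acetyl-CoA from citrate (-2.10 ± 0.35, adjusted p = 0.00151), Aacs and Acss2, which make activated acetoacetate and acetate (-1.82 ± 0.42 and -1.62 ± 0.47, adjusted p = 0.0132 and 0.047), and the reductase Cyb5r3 (-1.35 ± 0.20, adjusted p = 4.99e-04). Acly fell from 909 ± 336 to 213 ± 87.9 CPM in 3xTg (SD, n = 4). In WT none of the 4 was called on KD. The WT estimates were -1.45 ± 0.35 for Acly (adjusted p = 0.0529), -1.08 ± 0.41 for Aacs, -0.43 ± 0.46 for Acss2 and -0.29 ± 0.20 for Cyb5r3. Again on KD against control diet in 3xTg, 1 of 13 genes of non-sterol isoprenoid branches was higher, Pdss2 of ubiquinone synthesis (0.59 ± 0.16, adjusted p = 0.0383). Of 18 tested genes of sterol esters and carriers 1 was lower, Lrpap1 (-0.90 ± 0.15, adjusted p = 0.00136). KD against MCT in 3xTg gave Coq2 of ubiquinone synthesis higher (0.47 ± 0.14, adjusted p = 0.0441) and Cyb5r3 lower (-0.99 ± 0.20, adjusted p = 0.00459). Between genotypes, Cyb5r3 (0.90 ± 0.20) and Lrpap1 (0.80 ± 0.15) were higher in 3xTg on control diet. On KD, 3xTg livers had more Pdss2 (0.55 ± 0.16) and Soat1 (0.70 ± 0.22) and less Por (-0.80 ± 0.23), Lcat (-0.80 ± 0.23) and Scarb2 (-0.64 ± 0.16) than WT livers. Of all 13281 tested genes, 8.02% were called for KD against MCT in 3xTg. Between genotypes, 1.86% were called on control diet and 8.49% on KD. Whether these lists exceeded such shares was not tested. WT KD replicates 1, 2 and 4 held pancreas RNA, whose part in these calls was not tested. No gene of the 11 of SREBP processing, nor of the 8 of LXR and sterol efflux, was called in any of the 11 comparisons by edgeR, and the 7 comparisons not named here gave no call in any of these 5 lists.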

How the data were processed

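Read counts per gene were deposited by the authors in 1 table with all 24 libraries, as whole numbers that are not normalized. Libraries were made from polyadenylated RNA with adapters that carry molecular identifiers, per the labels' protocols. Trimmomatic, STAR and GRCm38 are named in the submitters' processing notes; these sources do not give the strand setting or any use of the identifiers in counting. Genes took 12009432 to 20108831 counts per library, and entries naming no gene, 21.5% to 30.1% of all counts, were left out. Groups come from the labels.

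All groups entered 1 model of group means in edgeR 4.0.16 (R 4.3.3), with filterByExpr by group, TMM scaling and quasi-likelihood tests on 18 residual degrees of freedom. SE is the absolute log2 fold change divided by the root of F. A gene was called at a Benjamini-Hochberg adjusted p under 0.05 over the 13281 genes tested. Every adjusted p is from this test unless DESeq2 (1.42.0) is named. The p-values set a difference against the spread between mice within groups, which was estimated over all groups together. Cages or litters are not named. Comparisons that use the same control livers are not independent. Full values are given for each member called, for the 3 smallest p values of a comparison without a call, and for called genes of the other lists; further members were chosen after their values were seen. The members and lists were chosen with earlier results of these data known. Alternatives were other scaling, no filter, DESeq2, a replicate block, the compared groups alone and each liver left out; leaving out libraries with pancreas or neutrophil RNA, the older quasi-likelihood fit and Dbp as a covariate were among the further ones, the last 2 chosen after seeing the data. The 2 livers left out for neutrophil RNA were also picked after seeing the data, from their marker levels. The code was tested on simulated data. Exon lengths are from GENCODE for GRCm38, and promoter stretches from RefSeq for GRCm38.p6.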

Additional observations from a re-analysis of the deposited data

Results flagged for a closer look

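For 10 of 168 member and group pairs, 1 of the 4 livers stood far from the other 3, by Dixon's gap test at the 95% level; chance alone gives about 5% of such groups. Insig2 in WT KD replicate 1 was 438.1 CPM against 71.3 to 104 CPM in the other 3 livers, the liver on which the WT estimate on KD rests. Mylip in 3xTg KD replicate 4 was 15.04 CPM against 22.1 to 23.2 CPM. In the same liver Mvk, the mevalonate kinase, was high at 36.36 CPM against 8.43 to 13 CPM. Mvd was high in WT KD replicate 4, at 39.23 CPM against 10.1 to 12.1 CPM, and low in WT MCT replicate 4, at 6.381 CPM against 13.2 to 14.4 CPM. WT MCT replicate 4 is the library with adrenal cortex RNA, and its part in the Mvd level was not tested. Stard4 in WT MCT replicate 1 was 242.6 CPM against 112 to 122 CPM. In 3xTg MCT livers, Pmvk, the phosphomevalonate kinase, was 79.97 CPM in replicate 3 against 40.4 to 46.6 CPM, and Tm7sf2 was 73.8 CPM in replicate 4 against 32.9 to 37.3 CPM; both libraries held pancreas RNA, whose part was not tested. Lbr in 3xTg KD replicate 3 was 14.12 CPM against 17.7 to 18 CPM. Dhcr7, the reductase of the last step, was 103.7 CPM in WT control replicate 4 against 78.5 to 82.3 CPM.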

How the results depend on the processing

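Counts of members called moved as follows. For KD against control in WT, 0 became 1 with DESeq2 and 1 with the compared groups alone. For the same contrast in 3xTg, 3 became 1 without a filter on low counts, 0 without both livers with neutrophil markers, and 0 to 5 with 1 liver left out. For MCT against control in 3xTg, 0 became 2 with DESeq2. For KD against MCT in 3xTg, 7 became 20 with library sizes alone, 4 with the compared groups alone, 1 without libraries with pancreas RNA, 4 without both livers with neutrophil markers, and 3 to 6 with 1 liver left out. Between genotypes on control diet, 0 became 1 with DESeq2, with the compared groups alone and with Dbp as a covariate, and 0 to 1 with 1 liver left out. Between genotypes on KD, 2 became 1 with the compared groups alone, 0 without libraries with pancreas RNA, 0 without both livers with neutrophil markers, and 1 to 3 with 1 liver left out. Between genotypes on MCT, 0 became 1 with DESeq2. For the difference of KD responses, 0 became 2 with DESeq2 and 0 to 1 with 1 liver left out. The cause of these moves was not tested; leaving out libraries also leaves fewer livers. Insig2 on KD in WT ranged from -0.0195 to 1.26 with 1 liver left out, and turned sign without WT KD replicate 1.

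Replicate numbers were not treated as pairs. Over 60 same-numbered pairs of libraries, r of their deviations from group means had a median of 0.04, and 25 pairs exceeded 0.1. Of 24 libraries, 7 were closest to their own number. These values cannot show whether same-numbered mice shared a cage or litter. With the replicate block, 4 members were called for KD against control in 3xTg, 7 for KD against MCT in 3xTg (where Cyp51 and Idi1 were lost, adjusted p = 0.0562 and 0.0564) and 2 between genotypes on KD. Depth gave every member at least 38 reads in each library, and the number of livers per group was 4.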
